A study of Mus musculus with 6 samples.

Results

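Small RNA reads were examined at 12 genomic windows known for microRNA clusters or the genes that host them, in male germ cells of mice with and without Dnmt3l. The windows were given by position on the mouse genome build GRCm39. A deposited row, one interval of the count table, was a member where it overlapped a window. Of 1272548 rows in the table, 1571 overlapped the 12 windows, and 1336 of these held at least 1 read. Rows overlap each other heavily, so 1 row stood for each window: the shortest whose reads, summed over all 6 libraries, passed 50% of those of the window's row with most reads. Reads chose the row, but genotype and age did not. Of the 12 rows 7 lie wholly inside their window.

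Testis germ cells came from mice of strain C57BL/6, either wild type (WT) or Dnmt3l knockout (KO). The labels give 1 WT and 1 KO library of enriched neonatal germ cells at postnatal day 0 (P0). At postnatal day 8 (P8) there are 2 WT and 2 KO libraries of THY1+ cells, a preparation enriched for spermatogonial stem cells. Age and cell preparation change together, so they cannot be told apart. The labels do not say whether the P8 replicates came from separate animals, so a p-value reflects only how far these samples spread, which may be technical. They give all 6 libraries the same batch.

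MicroRNAs are short RNAs cut from hairpins in longer transcripts, often several from 1 transcript, and several lie in introns of protein-coding host genes. A mature microRNA pairs with target messenger RNAs mainly through its seed, the bases near its 5′ end, and lowers their stability or translation. Neonatal male germ cells also make piRNAs, longer small RNAs that guide silencing of transposable elements. Dnmt3l encodes a partner, without catalytic activity of its own, of the enzymes that set DNA methylation at transposable elements in these cells. A read in these windows may therefore be any kind of small RNA, and the count table does not tell them apart.

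The mature sequences show what the clusters in these regions are known to make and how their products are related. They come from RefSeq annotation of GRCm38.p6, in which 39 of the clusters' hairpins were matched, all 39 on the chromosome of their window. Capitals mark the seed, bases 2 to 8 from the 5′ end. The first 3 share one seed over 3 windows (chr3, chr5 and chr14). The next pair shares a seed between the chr3 and chr7 windows, the pair after it between chr5 and chr14, and the let-7 pair between chr13 and chr16. The last 3 stand for the chr2, chr6 and chr11 Mir21a windows.
miR-367-3p: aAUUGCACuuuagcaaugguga
miR-25-3p: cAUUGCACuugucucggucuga
miR-92a-3p: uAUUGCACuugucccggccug
miR-302b-3p: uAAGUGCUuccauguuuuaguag
miR-294-3p: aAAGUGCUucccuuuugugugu
miR-93-5p: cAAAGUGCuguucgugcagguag
miR-17-5p: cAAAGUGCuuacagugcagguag
let-7a-5p: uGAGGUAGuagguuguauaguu
let-7c-5p: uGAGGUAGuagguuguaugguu
miR-10b-5p: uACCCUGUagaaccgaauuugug
miR-182-5p: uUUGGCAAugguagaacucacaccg
miR-21a-5p: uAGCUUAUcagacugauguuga

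No value in the table belongs to a mature sequence. The rows are named by position alone, hairpins were not placed on GRCm39 here, and it was not determined whether any row holds one. On GRCm38.p6 all 9 Mir290 to Mir295 hairpins lie within the position numbers of the chr7 window, which is given on GRCm39. The same holds for the chr5 and chr6 clusters, with 3 hairpins each, and for none in the other 9 windows. Positions differ between builds, and whether these 3 windows hold their clusters on GRCm39 was not determined. Cluster names below say only what a region is known for. In the RefSeq annotation the hairpins of Mir106b, Mir93 and Mir25 lie within Mcm7, a DNA replication helicase gene. Those of the Mir302 and Mir367 cluster lie within Larp7, Mir21a within Vmp1, and Mir143 and Mir145a within the long non-coding gene Carmn.

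Depth was taken over a set of 88220 rows with a read that do not overlap each other, since a read is counted in every row that holds it. These rows summed to between 4370238 and 6119689 reads per library. CPM below are counts per 1000000 of these reads, scaled by trimmed mean of M-values (TMM) factors of the same set. Fold changes come from edgeR fits whose TMM factors use every deposited row. Marker genes of germ or somatic cells could not be read from rows without gene names, so the labelled cell type was not checked.

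Some of the windows' 61 non-overlapping rows reach outside their window. Together the 61 rows took 0.0494% of the reads of the non-overlapping set at P0 in WT and 0.0386% in KO. At P8 the share was 0.0684% and 0.0657% in WT, and 0.0522% and 0.0509% in KO. The exact binomial 95% interval, which covers counting error only, was 0.0663% to 0.0705% in the first WT P8 library and 0.0489% to 0.0529% in the second KO P8 library. The WT P8 shares were the highest of the 6. Most of that rested on the chr5 window: without it the share was 0.0320% and 0.0260% at P0 and between 0.0162% and 0.0180% in the 4 P8 libraries.

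Levels of the 12 rows spread widely. These levels are a description, since reads chose the rows. How many of all tested rows have P8 genotypes that do not overlap was not counted. Where the text below says that they do not, this is a description too. Averaged over the 6 libraries, the median of the 12 was 7.51 CPM. The chr5 row was highest, with 305 CPM and 9070 reads in all. The other 11 rows held 17 to 706 reads each. Per kilobase, the chr5 row was at 24.5 CPM, followed by chr7 at 5.43 and chr18 at 4.49, and the chr11 Mir146 row was lowest at 0.0591. For scale, the highest row of the table held 491711 reads.

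**Figure D1:**
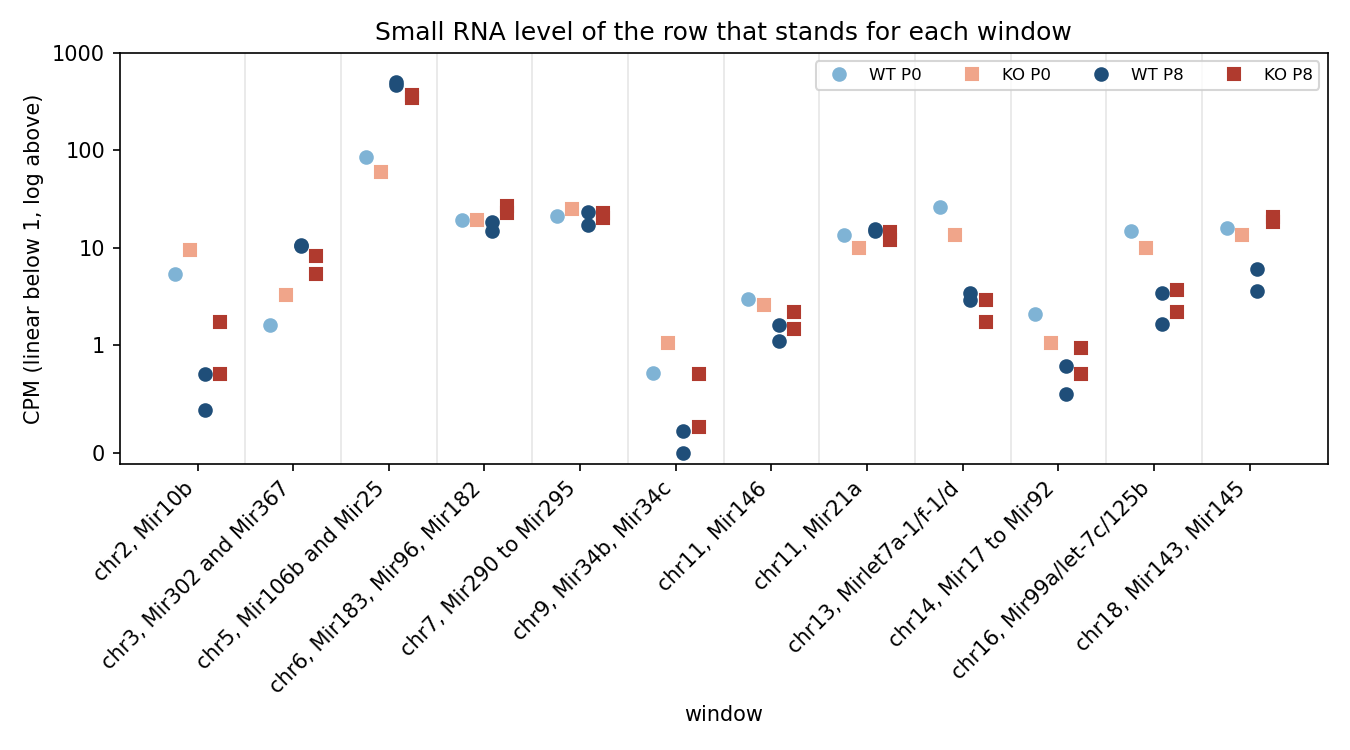
Level of the row that stands for each window, in CPM (linear below 1, logarithmic above). Each point is 1 library, circles WT and squares KO, pale P0 and dark P8; the chr5 row reached 502 CPM in a WT P8 library, and the chr9 row, the lowest, had 0 reads in another.

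Among windows known for clusters of early germ cells and pluripotent cells, the chr3 row (Mir302 and Mir367) rose with age and the chr7 row (Mir290 to Mir295) passed no test with scaling by every deposited row. The row chr3:127314392-127320516 lies mostly beside its window, with 8.42% of its length inside, and 0 rows wholly inside the window held a read. It had 13 reads in the WT and 19 in the KO library at P0. At P8 the WT pair had 57 and 53, and the KO pair 34 and 22. These are 1.60, 3.30, 10.4, 10.6, 8.27 and 5.35 CPM. Both WT P8 libraries lay above both KO P8 libraries, and all 4 lay above P0.

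The row chr7:3230802-3234781 had 172 reads in the WT and 145 in the KO library at P0. At P8 the WT pair had 127 and 86, and the KO pair 83 and 93. Its level stayed between 17.3 and 25.1 CPM in all 6 libraries, and WT and KO overlapped at P8. Within it, the 166 bp row chr7:3230866-3231031 held 249 reads, or 34.2% of the reads of the window's fullest row. At 1500 reads per kilobase this was the densest of the windows' rows with at least 20 reads. It had 46 reads in the WT and 26 in the KO library at P0. At P8 the WT pair had 57 and 36, and the KO pair 36 and 48. Unlike the longer row, it rose with age with scaling by every deposited row. The log2 fold change was 1.08 in WT (adjusted p in edgeR's test = 0.0108) and 1.27 in KO, which also passed. In CPM it was at 5.67 in WT and 4.51 in KO at P0. At P8 it was at 10.4 and 7.23 in WT, and 8.76 and 11.7 in KO. Its age change was not read with other scalings, on which the age comparison depended. The 166 bp row was named after its reads were seen.

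Among windows known for clusters of proliferating cells, the chr5 row (Mir106b and Mir25) was at 24.5 CPM per kilobase and the chr14 row (Mir17 to Mir92) at 0.727. The row chr5:138135044-138147495, of which 60.2% lies in the window, had 688 reads in the WT and 343 in the KO library at P0. At P8 it had 2756 and 2355 reads in WT, and 1517 and 1411 in KO. The levels were 84.8 and 59.5 CPM at P0, then 487 ± 20.2 CPM (SD, n = 2) in WT and 356 ± 18.2 CPM (SD, n = 2) in KO. WT was above KO at each age with no overlap at P8.

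The row chr14:115278423-115279841 had 17 and 6 reads in WT and KO at P0, and 3 or 4 reads in each P8 library. It was at 2.09 CPM in WT P0 and at 1.04 CPM or less elsewhere. The rows of this window covered 7.80% of its length, the smallest covered share of the 12 windows.

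The let-7 family restrains growth and stem cell genes and accumulates as cells differentiate. Rows of the windows known for let-7 were highest in WT P0. The row chr13:48699667-48706396 (let-7a-1, let-7f-1 and let-7d) had 213 reads in the WT and 77 in the KO library at P0. At P8 the WT pair had 16 and 17, and the KO pair 12 and 7. Its levels were 26.2 and 13.4 CPM at P0, and 1.70 to 3.42 CPM at P8, where the genotypes overlapped. The row chr16:77458735-77483098 (Mir99a, let-7c and Mir125b) had 119, 57, 9, 17, 9 and 15 reads in the same order of libraries. It was at 14.7 and 9.89 CPM at P0 and at 1.64 to 3.65 CPM at P8, again with overlap between genotypes.

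The chr18 window is known for Mir143 and Mir145, microRNAs of smooth muscle and other mesenchymal cells. Its row chr18:61758931-61761808, of which 62.8% lies in the window, had 129 reads in the WT and 77 in the KO library at P0. At P8 it had 33 and 18 reads in WT, against 84 and 75 in KO. The levels were 15.9 and 13.4 CPM at P0, then 4.81 ± 1.69 CPM (SD, n = 2) in WT and 19.3 ± 1.54 CPM (SD, n = 2) in KO. The WT P8 libraries were the low ones, and the P8 genotypes did not overlap.

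The chr6 window is known for Mir183, Mir96 and Mir182, a cluster of sensory cells. Its row chr6:30171605-30182156 had 155, 111, 100, 74, 109 and 93 reads in WT P0, KO P0, both WT P8 and both KO P8 libraries. It was at 19.1 and 19.2 CPM at P0, 16.5 ± 2.36 CPM (SD, n = 2) in WT P8 and 24.6 ± 2.75 CPM (SD, n = 2) in KO P8. KO lay above WT in every P8 library. With 50.8% of the reads of the window's fullest row, it only just met the rule.

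The chr11 row for Mir21a, a microRNA abundant in many tissues, was chr11:86461930-86479035. It had 109, 57, 81, 77, 60 and 49 reads in that order, or 9.89 to 15.5 CPM. Both KO P8 libraries lay below both WT P8 libraries, at 14.6 and 11.9 against 14.7 and 15.5 CPM.

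The remaining 3 rows had few reads. The chr2 row chr2:74575583-74581311, near the Hoxd genes that host Mir10b, had 44 and 54 reads at P0 and 2 to 7 at P8. The other chr11 row, chr11:43267315-43300910 (Mir146, a microRNA induced in innate immunity), had 24 and 15 reads at P0 and 6 to 9 at P8. The row chr9:51012474-51016565 (Mir34b and Mir34c, known from meiotic germ cells) had 6 reads in each P0 library and 0, 1, 3 and 1 at P8. A count of 0 in the first WT P8 library allows up to 0.546 CPM, for counting error only, so the chr9 levels were at the limit of detection.

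KO was compared with WT at P8 with edgeR's quasi-likelihood test over every deposited row, with Benjamini-Hochberg adjustment over the 247651 rows that passed its filter on low counts. Of the 12 rows 8 passed this filter, and those on chr2, chr9, chr14 and chr11 (Mir146) did not. Of the 8, 1 was higher in KO and 2 were lower. Over all tested rows 22.9% were higher and 21.0% lower, and counts of this size on 8 rows are no result about these rows. The median log2 fold change of the 8 rows was -0.19, against -0.01 over all rows tested.

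The chr18 row (Mir143 and Mir145) was higher in KO, with a log2 fold change of 1.85 ± 0.24 (SE) and an adjusted p of 5.53e-05 in edgeR's quasi-likelihood test. The chr5 row (Mir106b and Mir25) fell by 0.59 ± 0.08 on the log2 scale (adjusted p = 7.33e-05). Every KO P8 library differed from every WT P8 library in the called direction for both, though the share of all rows that do so was not counted. Both calls held under each alternative that tested these rows. Among rows wholly inside the window, other rows met the rule and neither passed: -0.27 on chr5 (adjusted p = 0.0912) and 0.89 on chr18 (0.124). The choice of row mattered on chr18. The tested row with most reads wholly inside that window, chr18:61777011-61791745, was at 0.99 (adjusted p in edgeR's test = 0.00779). The chr3 row (Mir302 and Mir367) fell by 0.76 ± 0.25 (adjusted p = 0.0275). That call was lost without WT replicate 1 (adjusted p = 0.115), without KO replicate 2 (0.231), and in the other settings given in the closing section.

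The chr6 row (Mir183, Mir96 and Mir182) did not pass, with a log2 fold change of 0.43 ± 0.17 and an adjusted p of 0.0602. It passed when the fit was scaled by the non-overlapping rows (log2 fold change 0.57, adjusted p = 0.0192). That scaling moved the median of all rows to 0.13 and the share of calls that were higher from 52.2% to 63.0%. The other tested rows were chr7 at -0.06 ± 0.18, chr11 Mir21a at -0.33 ± 0.19, chr13 at -0.58 ± 0.41 and chr16 at 0.09 ± 0.46 on the log2 scale. Their adjusted p-values in edgeR's test were 0.820, 0.191, 0.272 and 0.892. The chr13 and chr16 errors are wide at these read counts, so smaller differences were not detectable at this depth. The chr13 row, with 16 and 17 reads in WT against 12 and 7 in KO, met the filter's minimum only in the WT pair. It was tested only through the group where it was high, so its value supports nothing. The chr16 row, with 9 and 17 against 9 and 15 reads, did not meet the minimum throughout either pair.

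**Figure D2:**
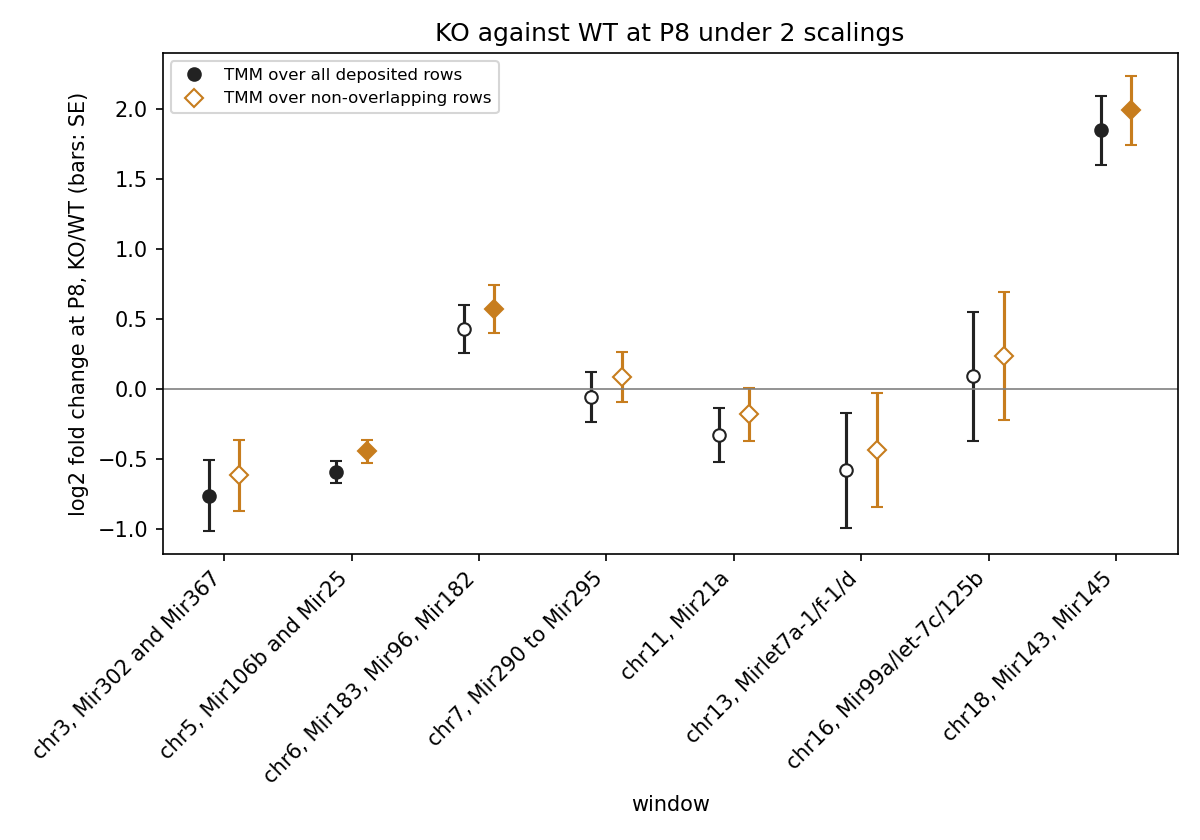
Log2 fold change of KO over WT at P8 for the 8 tested rows under both scalings, with SE bars; filled symbols have an adjusted p under 0.05. The chr18 row stands at 1.85, and the chr6 row is filled only with scaling by the non-overlapping rows. The chr13 row met the low-count minimum only in the WT pair.

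In bulk libraries, more cells of a type and more RNA per cell cannot be told apart. Mir143 and Mir145 are also known from peritubular smooth muscle cells of the testis. Since rows carry no gene names and other microRNAs of such cells were not located, their part in the chr18 difference was not tested.

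Within the windows 202 overlapping rows were tested at P8, of which 41 were higher and 13 lower, against 22.9% and 21.0% over all tested rows. With DESeq2 the shares over all rows were 13.0% higher and 10.5% lower. Rows that overlap share reads and are not independent, so the counts per window are a description. Of the 41 higher rows, 25 met the filter's minimum, about 10 reads, in both KO libraries but not in both WT libraries. Such a row was tested only through the group where it was high, so its call supports nothing. The same held for 2 of the 13 lower rows with WT and KO exchanged.

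In the chr18 window 26 of 33 tested rows were higher with edgeR and 9 with DESeq2. Of the 26, 12 met the minimum only in the KO pair. The other 14 were among 16 rows that met it in both genotypes, with log2 fold changes from 0.35 to 1.90 over the 16. The highest of these, chr18:61759659-61760677, had 77 reads in the WT and 37 in the KO library at P0. At P8 it had 19 and 11 reads in the WT pair and 54 and 43 in the KO pair, without overlap.

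The chr6 window held rows that moved in opposite directions. Of its 26 tested rows 15 were higher and 1 was lower. Of the 15, 13 met the minimum only in the KO pair, such as chr6:30173284-30175155 with 16 and 7 reads in the WT pair and 29 and 23 in the KO pair. The 2 higher rows that met it in both genotypes were at 0.62 and 0.66 on the log2 scale. The lower row, chr6:30116814-30151320, reaches far outside the window. It had 132 and 60 reads at P0. At P8 the WT pair had 369 and 354 and the KO pair 178 and 171, and it fell by 0.84 ± 0.11. The direction read from this window depends on the row. DESeq2 called 0 of the 26 rows higher, with 9 higher at an unadjusted p under 0.05, and 1 lower.

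In the chr5 window 2 of 8 tested rows were lower in edgeR. One was the row that stands for the window. The other, chr5:138151961-138152775, had 13 and 21 reads in the WT pair against 1 and 8 in the KO pair, and met the minimum only in the WT pair. At an unadjusted p under 0.05, 0 of the 8 were higher in edgeR or in DESeq2. The densest row of this window, the 231 bp row chr5:138167914-138168144, had 57, 42, 29, 29, 44 and 27 reads and was at 0.50 ± 0.29 on the log2 scale (adjusted p in edgeR's test = 0.180). In the chr3 window 4 of 8 rows were lower, and in the Mir21a window 6 of 36, of which 1 met the minimum only in the WT pair. DESeq2 called 0 of the chr3 rows, with 1 lower at an unadjusted p under 0.05, and 1 of the Mir21a rows. In edgeR 0 of 12 tested rows passed in the chr7 window, 0 of 76 in chr13 and 0 of 3 in chr16. In these 3 windows 0 rows had an unadjusted p under 0.05 in edgeR or in DESeq2, and DESeq2 called 0.

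**Figure D3:**
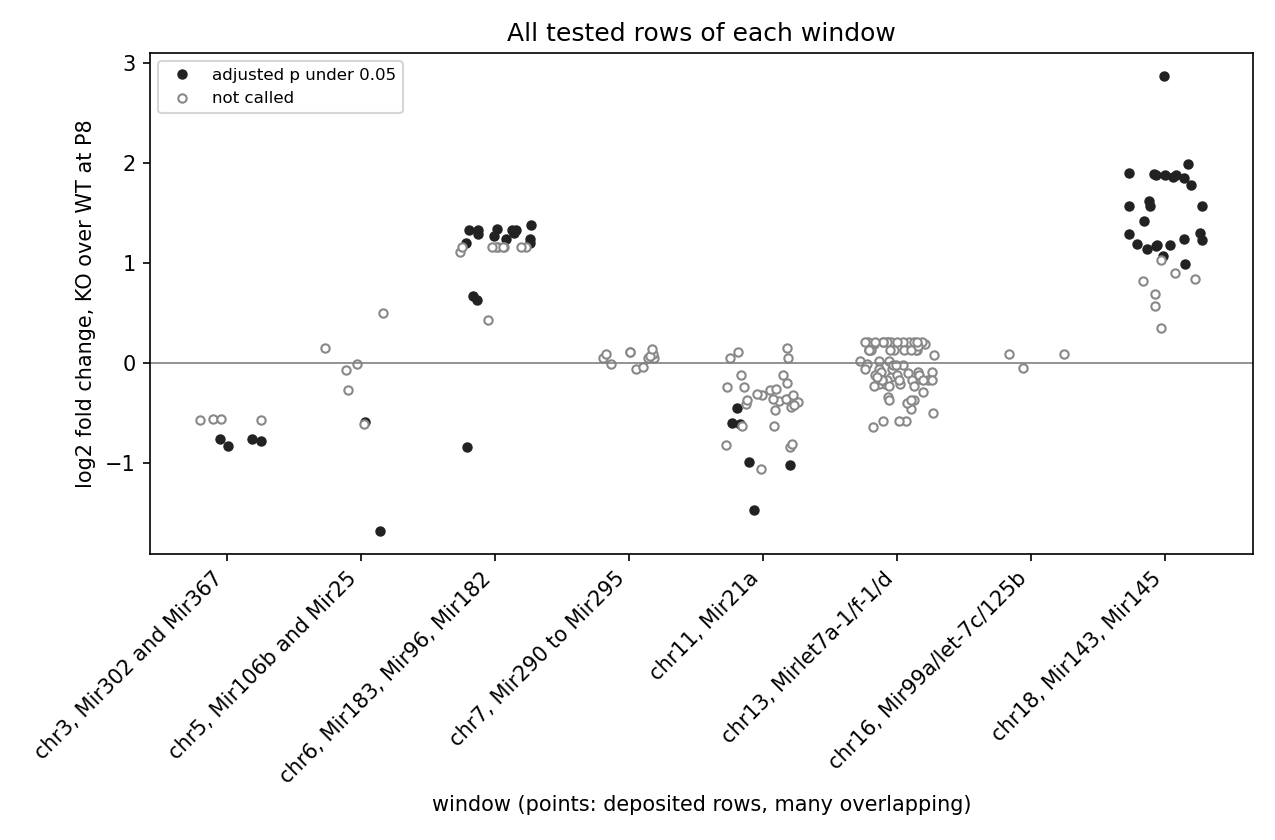
Log2 fold change of KO over WT at P8 for each of the 202 tested rows of the windows, filled where the adjusted p is under 0.05; many rows overlap. Of the called points above 0, 12 on chr18 and 13 on chr6 met the low-count minimum only in the KO pair, and chr6 has 1 called point at -0.84 below its other points.

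Fitting only non-overlapping rows counts no position more than once, though a read with several matches may still count in several rows. Of the windows' 61 such rows 16 were tested, and 3 were higher and 5 lower in KO at P8. Over all 23197 non-overlapping rows tested, 22.5% were higher and 20.1% lower. The 3 higher rows were 2 in the chr18 window and 1 in chr6. The 5 lower rows lay in chr3, chr5 and chr6 with 1 each and in the Mir21a window with 2. One of the latter, chr11:86483837-86490213, met the minimum only in the WT pair, with 12 and 11 reads against 3 and 4.

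At P0 there was 1 library per genotype, so KO over WT is a ratio with an exact conditional binomial 95% interval that covers counting error only. Of the 12 rows 0 were at least 2-fold higher or lower with an interval that excluded 1. Over all rows with at least 10 reads at P0, 4.90% were higher and 9.18% lower by that rule. The chr13 row (let-7) was at a ratio of 0.509 (0.387 to 0.663), just inside 2-fold. The intervals of 3 other rows also excluded 1: chr2 at 1.73 (1.14 to 2.63), chr5 at 0.702 (0.615 to 0.800) and chr16 at 0.674 (0.483 to 0.932). The chr3 row was at 2.06 (0.964 to 4.53), an interval that includes 1. These ratios depend on the scaling. Across the scalings tried, chr2 was at 1.72 to 2.11, chr3 at 2.05 to 2.51, chr5 at 0.698 to 0.856, chr13 at 0.506 to 0.621 and chr16 at 0.671 to 0.822. With column totals the chr3 interval excluded 1. The chr18 row, which was higher in KO at P8, was at 0.840 (0.625 to 1.12).

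Between P0 and P8, rows were compared within each genotype in 1 fit of all 6 libraries, in which the spread comes from the P8 pairs alone. Of the 12 rows 11 were tested, all but chr9. Since P0 has 1 library per genotype, about 10 reads in a single library let a row pass the low-count filter. The chr2, chr14 and chr11 Mir146 rows met this only at P0, so they were tested only through the age where they were high. Their calls below support nothing, and the counts are given with them included. In WT 3 were higher at P8 and 4 lower, against 32.1% higher and 39.6% lower over all 401736 tested rows. In KO 3 were higher and 3 lower, against 28.4% and 31.8%. The median log2 fold change of the 11 rows was -0.70 in WT and -0.13 in KO. Over all tested rows it was -0.41 and -0.21, which is the level against which these changes stand.

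The let-7 rows and the chr2 row fell in both genotypes by edgeR's quasi-likelihood test. The chr13 row fell by 2.61 ± 0.26 in WT (adjusted p = 1.38e-05) and fell by 2.42 ± 0.33 in KO (0.000188). As a ratio of CPM, which are scaled by the non-overlapping rows, the WT level was 8.32-fold lower at P8 (5.75 to 12.4, counting error only). The KO level was 5.78-fold lower (3.46 to 10.1). With that scaling edgeR's log2 value for the chr13 row in WT was -3.05, so the scaling differs between these figures. The chr16 row fell by 2.11 ± 0.35 in WT (adjusted p = 0.000491) and fell by 1.65 ± 0.40 in KO (0.00613).

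The chr2 row (Mir10b) fell by 2.76 ± 0.52 in WT (adjusted p = 0.00105 in edgeR's test) and fell by 2.82 ± 0.44 in KO (0.000435). It met the low-count minimum only at P0, where it was high, so this fall supports nothing beyond its read counts. Without WT replicate 2 the WT value was -2.41 with an adjusted p of 0.0541. With DESeq2 the falls of chr2 and chr16 missed the threshold in both genotypes.

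The chr5 row rose in both genotypes, by a log2 fold change of 2.96 ± 0.11 in WT (adjusted p in edgeR's test = 2.25e-08) and 2.68 ± 0.11 in KO. The chr3 row rose by 3.13 ± 0.36 in WT (adjusted p = 4.25e-05) and by 1.14 ± 0.38 in KO (0.0269). The KO call was lost without KO replicate 1 (adjusted p = 0.155), without WT replicate 1 (0.105) and without WT replicate 2 (0.102), and also with DESeq2, without the low-count filter and with 2 other scalings.

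The Mir21a row rose by 0.61 ± 0.20 in WT (adjusted p in edgeR's test = 0.0229) and was at 0.52 ± 0.24 in KO (0.0850). The KO value passed without KO replicate 2 (log2 value 0.66, adjusted p = 0.0475). The WT call was lost without WT replicate 1 (0.0903) or WT replicate 2 (0.110). With scaling by the non-overlapping rows the WT value was 0.17 (adjusted p in edgeR's test = 0.449), and with total counts 0.10 (0.643). The WT call was also lost without the low-count filter (0.41, adjusted p = 0.179) and with DESeq2 (0.58, 0.447).

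The chr18 row passed in opposite directions in the genotypes with scaling by every deposited row. It fell by 1.27 ± 0.27 in WT (adjusted p = 0.00212 in edgeR's test, 0.0976 with DESeq2) and rose by 0.63 ± 0.25 in KO (0.0491). With total counts the KO value was 0.02 (adjusted p = 0.951), so the opposite direction depends on the scaling. The KO call was also lost with DESeq2, without the low-count filter, with scaling by the non-overlapping rows, and without KO replicate 1 (adjusted p = 0.0915), WT replicate 1 (0.0645) or WT replicate 2 (0.0634). The chr6, chr7, chr14 and chr11 Mir146 rows did not pass in either genotype with scaling by every deposited row and all libraries. With total counts, chr7 fell by 0.75 in KO (adjusted p in edgeR's test = 0.0179), chr14 fell by 1.68 in WT (0.0428) and Mir146 fell by 1.19 in WT (0.0479). The chr14 row also passed in WT with scaling by the non-overlapping rows (adjusted p = 0.0458). The chr14 and Mir146 rows met the low-count minimum only at P0, so their calls support nothing. The chr6 row passed in KO without KO replicate 2 (log2 value 0.56, adjusted p = 0.0357).

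The age comparison depended on the scaling. With library totals in place of TMM, the median of all rows moved to -0.90 in WT and -0.81 in KO, and calls that were higher from 44.8% to 34.8% in WT and from 47.2% to 31.0% in KO. With scaling by the non-overlapping rows the medians were -0.98 and -0.41, and the share higher was 34.4% in WT and 44.3% in KO.

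**Figure D4:**
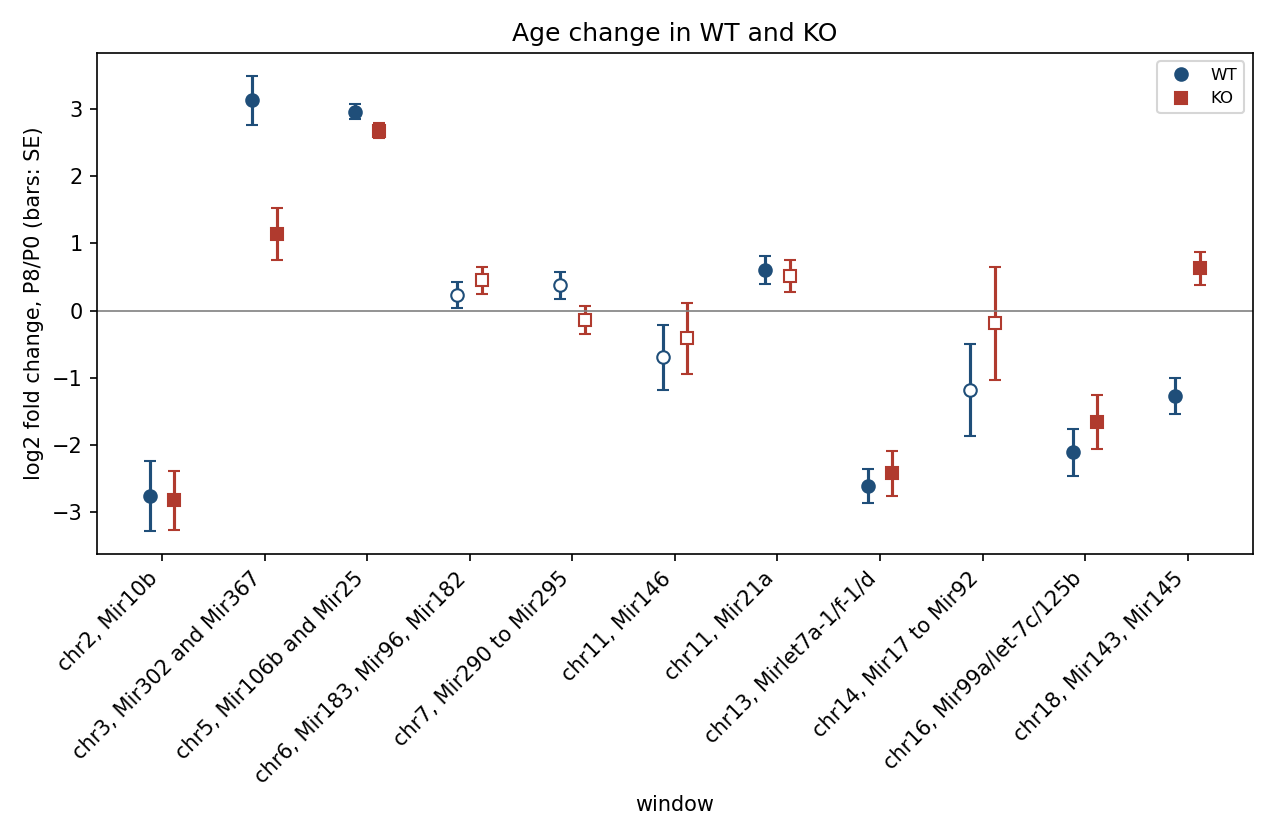
Log2 fold change from P0 to P8 in WT (circles) and KO (squares) for the 11 tested rows, with SE bars; filled symbols have an adjusted p under 0.05. The chr5 row rose and the chr2, chr13 and chr16 rows fell in both genotypes, while chr18 is filled on both sides of 0 with this scaling. The chr2, chr14 and Mir146 rows met the low-count minimum only at P0.

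Whether the genotype difference itself differed between ages was tested as an interaction in the same fit. Of the 11 tested rows 1 was higher (a more positive KO difference at P8) and 0 lower, against 6.64% higher and 3.31% lower over all tested rows. At an unadjusted p under 0.05, 1 row was higher and 1 lower in edgeR. DESeq2 called 0 rows, with 1 higher and 0 lower at an unadjusted p under 0.05.

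The called row was chr18, with an interaction of 1.90 ± 0.37 on the log2 scale (adjusted p in edgeR's test = 0.0103). It was lost without WT P8 replicate 1 (log2 value 2.30, adjusted p = 0.217) or replicate 2 (1.59, 0.216), with DESeq2 (1.81, 0.271), and without the low-count filter (2.03, 0.0507). In edgeR's fits without a WT P8 replicate 0 rows of the whole table were called, while 43266 and 43515 were higher, and 27527 and 27981 lower, at an unadjusted p under 0.05. The chr3 row was at -1.99 ± 0.58 (adjusted p = 0.0602), the lowest of the 11. With scaling by the non-overlapping rows the median of all rows moved from 0.09 to 0.45, and the share of calls that were higher from 66.7% to 87.3%. The interaction rests on 1 P0 library of each genotype.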

How the data were processed

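Small RNA of 15 to 36 nt was purified on polyacrylamide gels and made into libraries with an Illumina kit, per the labels' protocols. The authors deposited raw read counts per interval for 6 libraries. Per the submitters' processing notes the tools were bedtools, Bowtie 1.1.1, TopHat2 2.1.1, FastQC 0.10.1 and cutadapt 1.13, and the build was GRCm39. How the intervals were made is not given in the sources used here. Nor is the handling of reads with several matches, which can set the level of a single row. A second deposited table of log2 values for P8 was not used here.

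Counts were tested with edgeR 4.0.16 (R 4.3.3) after filterByExpr, with TMM factors over every deposited row that passed it. Its quasi-likelihood tests were two-sided and Benjamini-Hochberg adjusted over all rows tested, threshold 0.05. The P8 fit used the 4 P8 libraries and the age and interaction fits all 6. CPM used a non-overlapping set of rows, chosen by mean CPM over all libraries. Ratios carry exact conditional binomial 95% intervals, and a count of 0 is read against a floor of 3 reads. Without molecular identifiers, reads are not independent molecules. The scripts were tested on simulated data. Alternatives were DESeq2 1.42.0, total counts, scaling by the non-overlapping rows, no filter, each P8 library left out, a replicate block and other choices of row. Every window's standing row is named, whatever its values. The windows and lists were chosen with earlier results of these data known. Positions are counted from 1.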

Additional observations from a re-analysis of the deposited data

Results flagged for a closer look

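The chr18 row (Mir143 and Mir145) had a genotype difference that differed between P0 and P8 by edgeR's quasi-likelihood test of the interaction, with a log2 value of 1.90 ± 0.37 (adjusted p = 0.0103). Both KO libraries stood above both WT libraries at P8, with means of 19.3 against 4.81 CPM. At P0 KO was at 13.4 and WT at 15.9 CPM, a ratio of 0.840 (0.625 to 1.12) whose interval includes 1. The interaction value rests on 1 P0 library per genotype, and leaving out either WT P8 library ended the call. The call was also lost with DESeq2 and without the low-count filter.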

How the results depend on the processing

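At P8 the 12 rows gave 1 higher and 2 lower calls with edgeR. Scaling by the non-overlapping rows gave 2 higher and 1 lower. Without the low-count filter, and with DESeq2, 1 was lower. Leaving out 1 P8 library at a time gave 1 to 2 higher and 1 to 2 lower. The chr3 call was lost with that scaling (adjusted p = 0.0700), without the filter (0.164) and with DESeq2 (0.209). It was also lost with rows holding more than 0.9 of the most reads (log2 value -0.57, adjusted p in edgeR's test = 0.0774). By that choice of row chr6 (-0.84, 6.18e-05) and Mir21a (-0.60, 0.0107) were called lower. With rows wholly inside the windows 0 were lower (1 at an unadjusted p under 0.05 in edgeR), and with the row of most reads 4 were lower. With rows wholly inside, chr18 was not called and chr6 was called higher instead (log2 value 0.62, adjusted p in edgeR's test = 0.0199). With the row of most reads chr18 was called higher and chr6 lower (-0.84, 6.18e-05), so the chr6 direction depends on the choice of row. The age change in WT gave 4 lower calls, 6 with total counts, 5 with scaling by the non-overlapping rows and 1 with DESeq2. All but the last include chr2, and those with total counts also chr14 and Mir146, which met the low-count minimum only at P0. With the non-overlapping scaling chr14 was included too. With DESeq2 the age change gave 1 higher and 1 lower in KO. Higher calls with age in KO also numbered 1 with total counts, with the scaling of the non-overlapping rows and without the filter, and 1 to 5 when 1 library was left out. The interaction gave 0 higher calls without the filter and with DESeq2 (1 at an unadjusted p under 0.05 in each), and 0 to 1 higher and 0 to 1 lower when 1 library was left out. The cause of these changes was not tested.

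The replicate numbers were not treated as pairs, since the labels name no shared source. Whether they pair the P8 samples is not known. The deviations of replicate 1 correlated at r = 0.12 between WT and KO over 23197 rows. With the replicate number as a block, 2 rows were higher at P8 (chr6 at 0.43, adjusted p = 0.0386) and 1 was lower in the interaction (chr3 at -1.99, 0.0106). Over all tested rows the block moved the lower interaction calls from 13299 to 23010.

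Some values without a call changed sign. At P8 the chr7 row was at 0.086 with scaling by the non-overlapping rows, and at -0.26 to 0.15 with 1 library left out. The chr16 row was at -0.38 to 0.68 with 1 library left out. For the age change in WT, chr6 was at -0.27 with total counts, -0.20 with the non-overlapping scaling and -0.014 in the non-overlapping rows alone, and chr7 at -0.13 and -0.063 in the first 2 of these. In KO, chr6 was at -0.16 and the Mir21a row at -0.091 with total counts. For the interaction with the non-overlapping scaling, chr2 was at 0.27, chr5 at 0.058 and Mir21a at 0.25. Without the filter chr2 was at 0.066 and Mir21a at 0.044. With 1 library left out the interaction was at -0.79 to 0.42 for chr2, -0.029 to 0.57 for Mir146, -0.24 to 0.047 for Mir21a, -0.25 to 0.52 for chr13 and -0.017 to 1.05 for chr16.

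The median level of the 12 rows in WT P8 was 3.99 CPM. It was 8.23 with rows holding more than 0.9 of the most reads, 2.53 with rows wholly inside, 9.13 with the rows of most reads and 0.483 with column totals of all rows. With column totals, the P0 ratio was 2-fold or more above 1 for 2 rows, chr2 and chr3, with intervals that excluded 1. Over all rows, P8 calls numbered 56606 higher and 51928 lower. They were 31385 and 24609 without the filter, 32216 and 26109 with DESeq2, and 34621 and 29196 without WT replicate 1. The age change had 128797 higher and 159012 lower in WT, against 69581 and 58556 with DESeq2 and 95229 and 102130 lower without WT replicate 1 or 2. In KO it had 114093 and 127871, against 76395 higher and 170363 lower with total counts and 53836 and 43703 with DESeq2. The interaction had 26657 higher and 13299 lower. It had 14405 and 3369 without the filter, 7288 and 4756 with DESeq2, 4757 lower with the non-overlapping scaling, and 20890 and 23248 lower without KO replicate 1 or 2.

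The row holding an annotated hairpin, other microRNA loci and the lists of cell type microRNAs were not run, as they need an annotation of GRCm39. Reads per row limit the chr2, chr9, chr14 and Mir146 rows most.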
